A study of Mus musculus with 58 samples.

Results

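Gene expression was compared between 1 day and 8 h of retinoic acid (RA) treatment in control mouse embryonic stem (ES) cells. The comparison uses 4 of the 58 libraries of the series, 2 labelled DMSO RA day1 and 2 labelled DMSO RA 8h, out of 22 libraries made by Quant-seq, which counts polyadenylated RNA from its 3′ end. The libraries were chosen by their labels alone. The cells were DPY30–mAID cells, an E14 ES cell clone of 129/Ola background in which both copies of Dpy30, a core subunit of the complexes that methylate histone H3 at lysine 4, carry a degron tag, and which also expresses the plant protein OsTIR1. Auxin would direct the tagged protein to degradation, and the 4 libraries come from cells that received the vehicle DMSO in its place, so that DPY30 was kept. All cells were grown with serum and leukaemia inhibitory factor (LIF) before the treatment, and then without LIF and with 1 µM all-trans RA for 8 h or 1 day. The line is 1 clone, and the withdrawal of LIF and the addition of RA cannot be told apart. The step from 8 h to day 1 was also measured in auxin-treated cells of the same clone, in 2 libraries per time, and DMSO-treated cells were measured at 0 h and on days 2, 4 and 6.

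RA is a vitamin A derivative that binds the RA receptors, nuclear receptors that sit on DNA with a retinoid X receptor partner and switch on genes when the ligand arrives. Their best-known direct targets include the receptor gene Rarb, the RA-degrading enzyme gene Cyp26a1 and the 3′ genes of the Hox clusters, which specify position along the body axis. In ES cells, RA together with loss of LIF starts an exit from pluripotency, and the first hours of receptor activation are followed by changes in cell cycle, metabolism and lineage genes.

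The receptor pair binds direct repeats of a 6-base half-site, classically with a spacer of 5 bases and also with spacers of 2 or 1. The half-site AGGTCA, the variant AGTTCA, the second variant GGTTCA and the third one GGGTCA were searched on both strands from 250 bases before to 50 bases after each RefSeq start site (build GRCm38.p6). With a spacer of 5 bases, 5 of the 9045 tested genes with a promoter sequence held such a repeat, among them Rarb and Cyp26a1. Over all 32851 promoters searched, those of 31 genes held the repeat. Both windows are printed 5′ to 3′ on the strand of the gene, with the repeat in capitals, because both genes rose over the step. The Rarb window is chr14:16575506-16575535 on the minus strand, and the repeat starts 53 bases before the start site. The Cyp26a1 window is chr19:37697770-37697799 on the plus strand, and the repeat lies on the opposite strand, 32 bases before the start site.
Rarb: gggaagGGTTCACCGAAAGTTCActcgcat
Cyp26a1: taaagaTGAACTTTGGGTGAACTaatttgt
The other 3 tested genes with the repeat (Syndig1, Gm4631 and Blvrb) were not called. With a spacer of 2 bases the repeat was found in promoters of 84 genes. None of these was called over the step, although 9 genes that hold it were tested. With a spacer of 1 base it was found in promoters of 71 genes. Of the 27 tested genes that hold it, 1 rose, Phactr2, and 3 fell, Ak4, Dnaja2 and Akt1. Of all genes tested, 9.29% rose and 7.43% fell.

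The 4 libraries held 1914037 and 2382599 reads at 8 h and 1843040 and 1815062 reads on day 1, within the range of 1264241 to 2543632 over all Quant-seq libraries. Replicates correlated with r = 0.984 at 8 h and 0.979 on day 1 over genes. The labels do not say whether replicates came from separate cultures, so the p-values measure the spread between libraries of a group, which may be technical. That spread was pooled over all groups in 1 fit of 21 Quant-seq libraries. Of the ES cell markers, Pou5f1, Sox2, Nanog, Esrrb, Klf4 and Zfp42 each had at least 190 reads in each of the 4 libraries. Levels are given as counts per 1000000 reads (CPM) after TMM scaling, and fold changes as log2 of day 1 over 8 h ± SE, with n = 2 libraries at each time. Adjusted p-values are those of edgeR's quasi-likelihood test with Benjamini-Hochberg adjustment over all 11415 genes tested. A gene is said to have risen, fallen or been called where its adjusted p was under 0.05 and its log2 fold change was over 1 in size.

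Between 8 h and day 1, 1061 genes rose (9.29% of the genes tested) and 848 fell (7.43%), the background against which counts of list members are read. The median log2 fold change of all genes tested was 0.02. Without TMM factors the median shifted by 0.12 and the split became 1293 higher and 631 lower, so that 67.2% of the called genes were higher against 55.6% with TMM. Among the genes that rose, the median log2 fold change was 1.76 (1.69 with genes at 0 reads set to their bound), 432 genes had a value over 2 and 188 had a value over 3. Among those that fell the median was −1.31, and only 79 had a value beyond −2 and 18 beyond −3. Rising genes were mostly read at low depth. In 769 of the 1061 (72.5%) the mean at day 1 was under 50 reads, and 67 had 0 reads at 8 h, whereas 249 of the 848 falling genes (29.4%) had fewer than 50 reads at 8 h. The median level over the 4 libraries was 9.39 CPM in rising genes, 36.9 CPM in falling genes and 25.9 CPM in genes not called.

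**Figure D1:**
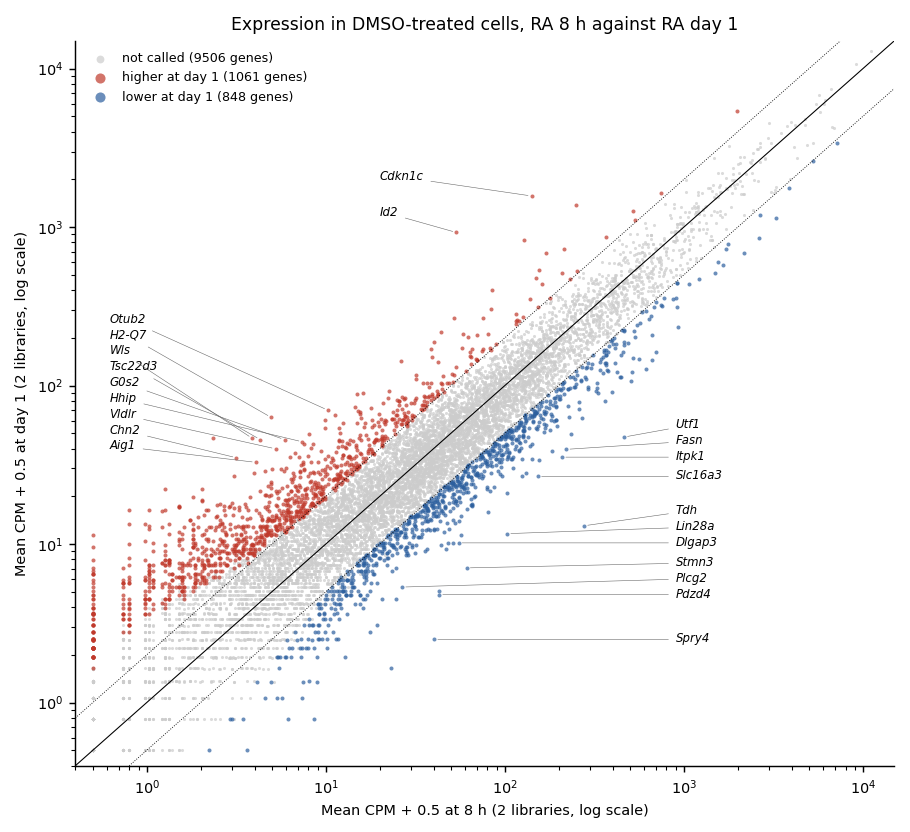
Mean level of each of the 11415 genes tested at 8 h (x) and on day 1 (y), in CPM plus 0.5 on log scales, each a mean of 2 DMSO libraries. The solid line marks equal levels and the dotted lines a 2-fold difference, the 1061 genes that rose are red and the 848 that fell are blue, and the labelled genes are well-read genes with large rises or falls.

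Some genes of the RA pathway rose. Of 20 tested genes for RA receptors, retinoid binding and metabolism, 6 rose, 1 fell and 13 were not called, with a median of 0.41. The background was 9.29% higher and 7.43% lower, so that 1 fall in 20 does not exceed it. The receptor gene Rarb (chromosome 14, 16430839 to 16819156) was read at 1.76 and 3.83 CPM at 8 h and at 18.2 and 13.8 CPM on day 1. Both day 1 libraries lay above both 8 h libraries, and the log2 fold change was 2.44 ± 0.44 (adjusted p = 7.7e-05). Cyp26a1 (chromosome 19, 37697798 to 37701536), whose product degrades RA, went from 24.7 and 23.9 CPM to 56.2 and 53.5 CPM, a rise of 1.17 ± 0.29 (adjusted p = 0.0025). At 0 h it had no reads in either library.

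Rbp4, the retinol carrier of plasma, rose from 2.35 and 5.26 CPM to 10.8 and 10.3 CPM. Lrat, which esterifies retinol for storage, and Crabp2, which hands RA to the receptors, rose from 3 reads each at 8 h to 26 reads each on day 1. That is a ratio of 9.39 with a 95% counting interval of 2.88 to 48.5 for either gene, and intervals here cover counting error only. Without the first day 1 replicate only 3 RA genes were called higher, and without the second 2 were called lower. The calls of Rbp4 and Crabp2 were lost without the first day 1 replicate, that of Rbp4 also without the first 8 h replicate and in DESeq2, and that of Lrat without the second 8 h replicate.

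The receptor gene Rarg, which encodes the gamma form, moved the other way, from 316 and 334 CPM at 8 h to 102 and 89.1 CPM on day 1. The groups were far apart, and the fall was 1.77 ± 0.13 on the log2 scale (−1.77, adjusted p = 3.6e-11). Rara was read at 48.2 and 47.8 CPM and then at 34.1 and 32.2 CPM, a log2 value of −0.53 that was not called, and the retinoid X receptor genes Rxra, Rxrb and Rxrg were not called either. The reductase gene Dhrs3 (0.50), the gene for the cell-surface receptor of RBP4, Stra6 (1.03), and the second RA hydroxylase gene Cyp26b1 (0.32) were not called over the step. Their mean levels were 93, 26.8 and 136 CPM on day 2, against 28.3, 6.0 and 6.29 CPM on day 1. Aldh1a1, a gene for an RA-synthesizing enzyme, had 0 reads in all 4 libraries, and nearly all reads of Aldh1a3 (99.0%) and Fabp5 (98.8%) were assigned from reads that map to several places.

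No tested Hox gene fell, and most of those tested in the Hoxa, Hoxb and Hoxc clusters rose. Against 9.29% of all genes, in the Hoxa cluster 7 of 8 tested genes rose (median 1.68), in Hoxb 6 of 10 (median 1.95), in Hoxc 4 of 7 (median 2.63, or 2.17 with bounds) and in Hoxd the single tested gene, Hoxd13, whose call was lost without the second 8 h or the second day 1 replicate. Another 3 Hoxa, 2 Hoxc and 8 Hoxd genes were too rarely read to be tested or not used here. Hoxa5 (chromosome 6, 52201754 to 52204587) went from 77.6 and 72.7 CPM at 8 h to 262 and 271 CPM on day 1. The rise was 1.83 ± 0.14 (adjusted p = 9.9e-11), from a 0 h mean of 0.242 CPM. Hoxa3 went from 20.6 and 21 CPM to 62.5 and 58.6 CPM (1.54 ± 0.19). For both genes the libraries of a time point lay close together and the times did not overlap.

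Of the tested Hoxa genes, Hoxa9 and Hoxa10 had the largest ratios and the fewest reads at 8 h. Hoxa9 had 3 reads over the 8 h libraries and 55 over the day 1 libraries, a ratio of 19.9 with a counting interval of 6.45 to 99.3. Hoxa10 was read at 0.588 and 1.43 CPM and then at 14.2 and 8.62 CPM (3.36 ± 0.64). Hoxa7, with a log2 value of 0.98 ± 0.24, lay just inside the 2-fold limit and was called higher in 13 of the 15 other settings.

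In the Hoxb cluster, Hoxb1 (chromosome 11, 96365752 to 96368256) rose from 8.81 and 5.26 CPM to 27.8 and 30.5 CPM (2.07 ± 0.25, adjusted p = 3.1e-07) and stood at a mean of 211 CPM on day 2. Hoxb2 rose from 4.7 and 7.17 CPM to 26.7 and 21.3 CPM, and Hoxb3 from 3.53 and 7.17 CPM to 34.1 and 22.4 CPM. Hoxb5 and Hoxb7 were already at 17.8 and 11.6 CPM on average at 8 h, and their log2 values of 0.44 and 0.51 were not called. The Hoxc genes were barely read at 8 h. Hoxc9 had 2 reads at 8 h and 22 on day 1, a ratio of 11.9 (2.93 to 105), and its mean was 100 CPM on day 2. Hoxc8 had 0 reads at 8 h and 5 on day 1, which is at least 1.81-fold higher with the floor of 3 reads over the group, and its call was lost in DESeq2 and without either 8 h replicate or the second day 1 replicate.

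**Figure D2:**
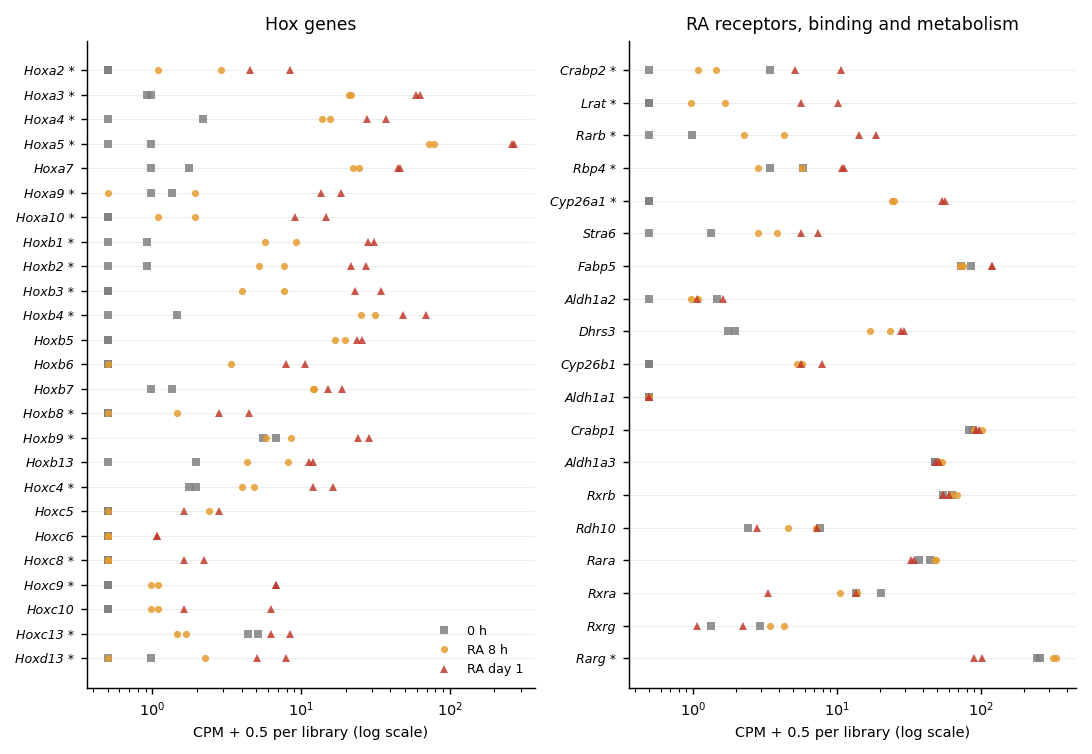
Level of tested Hox genes (left) and RA pathway genes (right) in each DMSO library at 0 h (squares), 8 h (circles) and day 1 (triangles), in CPM plus 0.5 on a log scale, with an asterisk at each gene called between 8 h and day 1. The triangles of Hoxa5 lie at 262 and 271 CPM, right of its circles at 77.6 and 72.7 CPM, and those of Rarg lie left of its circles.

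Partners of the Hox proteins were divided. Of 11 tested cofactor and Cdx genes, 5 rose, 5 were not called and 1 fell, with a median of 1.40 (background 9.29% higher and 7.43% lower, so that 1 fall in 11 is near it). Meis2 rose from 18.2 and 12 CPM to 64.2 and 70.1 CPM (2.18 ± 0.21) and Pbx3 from 9.4 and 11.5 CPM to 27.8 and 39.1 CPM (1.66 ± 0.29). Pknox1 fell from 51.7 and 50.2 CPM to 14.8 and 21.3 CPM (−1.50 ± 0.22).

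Some of the largest changes were in well-read genes, those with at least 50 reads in the higher group. Id2, an inhibitor of basic helix-loop-helix factors (chromosome 12, 25093799 to 25097140), went from 48.8 and 57.4 CPM to 924 and 926 CPM, a change of 4.11 ± 0.13 with an adjusted p of 3.4e-18. Its mean was 37.3 CPM at 0 h and 956 CPM on day 2, so that nearly the whole rise of Id2 fell into this step.

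Cdkn1c, an imprinted gene for the cyclin-dependent kinase inhibitor p57 (chromosome 7, 143458339 to 143461050), was read at 145 and 136 CPM at 8 h and at 1469 and 1674 CPM on day 1 (3.48 ± 0.12, adjusted p = 7.1e-18). Its mean was 176 CPM at 0 h and 214 CPM on day 4, so the high level stood on days 1 and 2 among the times measured. Wls, which carries Wnt ligands to the cell surface, rose by 3.72 ± 0.30, Tsc22d3, a glucocorticoid-induced leucine zipper gene, by 3.50 ± 0.37, and Hhip, a decoy receptor for Hedgehog ligands, by 2.71 ± 0.33. Other well-read genes with large rises were Chn2 (3.68), Aig1 (3.11), G0s2 (3.08), Vldlr (3.04) and Otub2 (2.82). H2-Q7, a major histocompatibility class I gene, had a value of 3.78, but 74% of its reads map to several places, and reads of near-identical family members cannot be told apart there.

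Id2 belongs to the Nodal and BMP feedback list, in which 8 of 13 tested genes rose and 0 fell (median 1.39, or 1.48 with bounds), where 9.29% of all genes rose. Id1 rose from 208 and 218 CPM to 747 and 697 CPM (1.76 ± 0.10) and Id3 from 152 and 146 CPM to 446 and 507 CPM (1.68 ± 0.14). Skil, a SMAD corepressor, rose from 74 and 65 CPM to 202 and 212 CPM (1.57 ± 0.17). The Nodal inhibitors Lefty1 and Lefty2 rose by 1.29 and 1.39. Nodal itself (0.25), Smad6 (−0.01) and Smad7 (−0.51) were not called.

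Genes tied to pluripotency fell or were not called, and none rose. Of 26 tested genes 15 fell, with a median of −1.26, against 7.43% that fell and a median of 0.02 over all genes. The largest fall among well-read genes was that of Tdh, the threonine dehydrogenase of mouse ES cells (chromosome 14, 63492347 to 63509092), from 288 and 266 CPM at 8 h to 15.9 and 9.2 CPM on day 1. The 2 times did not overlap, and the log2 change was −4.45 ± 0.18 (adjusted p = 3.8e-16). Utf1, a chromatin factor of ES cells (chromosome 7, 139943789 to 139945112), went from 447 and 478 CPM to 48.3 and 45.4 CPM (−3.30 ± 0.15, adjusted p = 2e-15). The Nodal coreceptor gene Tdgf1 went from 511 and 496 CPM to 91.4 and 122 CPM (−2.24 ± 0.13), and Tfcp2l1 from 245 and 273 CPM to 69.3 and 71.3 CPM (−1.88 ± 0.13).

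The core factors behaved differently. Nanog was read at 523 and 495 CPM at 8 h and at 467 and 564 CPM on day 1, and the groups overlapped (0.02 ± 0.14, adjusted p = 0.95). Sox2 was read at 388 and 427 CPM and then at 459 and 470 CPM (0.19 ± 0.10, adjusted p = 0.13). Pou5f1 was read at 1991 and 2225 CPM and then at 1962 and 1652 CPM (−0.22 ± 0.11, adjusted p = 0.11), nearly all from reads that map to several places, so its reads may include those of pseudogene copies. Over the same step Esrrb fell from 359 and 348 CPM to 139 and 162 CPM (−1.23 ± 0.11). Klf4 (−0.86) and Zfp42 (−0.96) had adjusted p-values of 1.4e-05 and 1.8e-05 but stayed inside the 2-fold limit.

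Lin28a, an RNA-binding protein gene that blocks let-7 maturation (chromosome 4, 134003330 to 134018841), went from 98.1 and 107 CPM to 11.9 and 10.3 CPM (−3.20 ± 0.23, adjusted p = 4.3e-11). Its mean level was 90.1 CPM on day 2 and 124 CPM in the 1 day 6 library counted, so that the day 1 libraries held the lowest of its levels over the time course. Prdm14, a repressor of differentiation genes, fell from 12.3 and 12.4 CPM to 1.7 and 1.15 CPM (−3.06 ± 0.60).

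**Figure D3:**
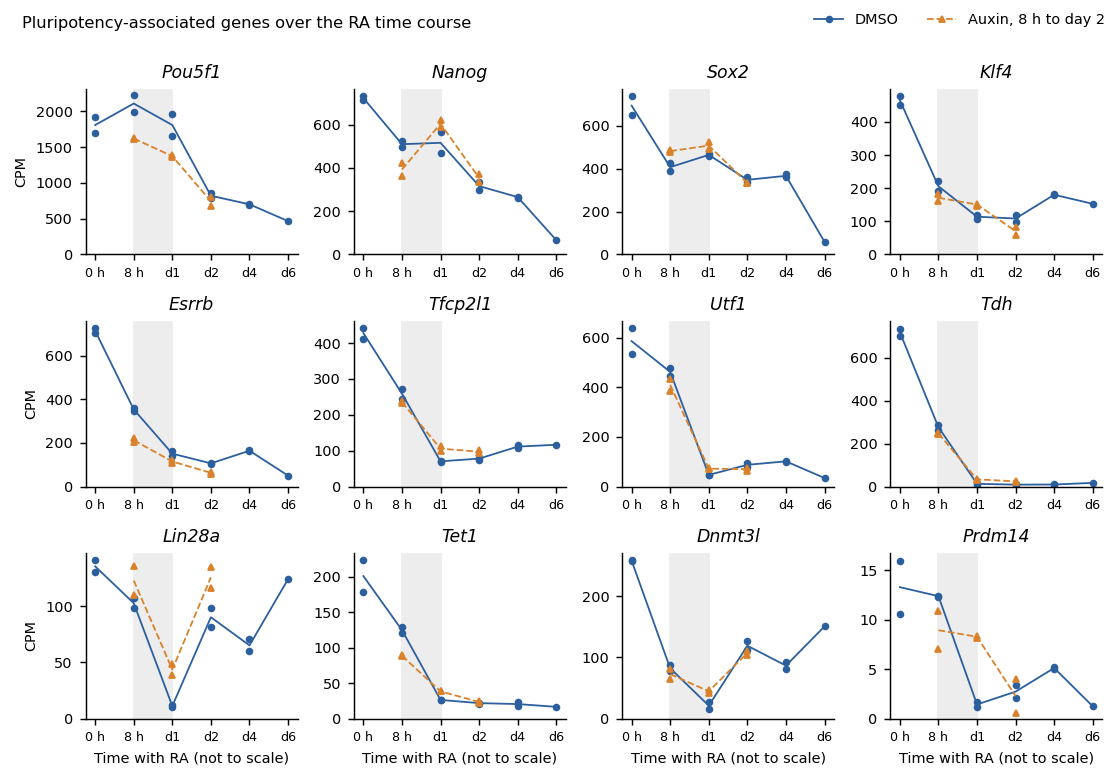
CPM of 12 pluripotency-associated genes in each DMSO library (blue circles, lines through means) from 0 h to day 6 and in each auxin library (orange triangles, dashed) from 8 h to day 2, with times evenly spaced and not to scale and the 8 h to day 1 step shaded. Across the shaded step Nanog, Sox2 and Pou5f1 change by less than the 2-fold limit, Tdh and Utf1 fall, and Lin28a drops to 11.9 and 10.3 CPM with DMSO.

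Targets of LIF and STAT3 and genes of the formative state were mixed. The background was 9.29% higher and 7.43% lower. Of 12 tested LIF targets 3 fell and 0 rose (median −0.69). Bcl3 went from 38.2 and 55 CPM to 8.52 and 9.2 CPM (−2.40 ± 0.32) and Gbx2 from 18.8 and 12.9 CPM to 6.25 and 7.47 CPM (−1.18 ± 0.35, not called in DESeq2 or without the first 8 h or the first day 1 replicate), while Socs3 (−0.59) was not called. Of 17 formative and epiblast genes 3 rose and 5 fell (median 0.25), or 3 fell without the first day 1 replicate. Otx2, a regulator of the formative epiblast, rose from 9.99 and 12 CPM to 39.7 and 35.6 CPM (1.76 ± 0.29), and Sox3 rose by 1.80 ± 0.45, a call lost without the second 8 h replicate. Tcf15, a marker of cells leaving naive pluripotency, fell from 616 and 614 CPM to 135 and 118 CPM (−2.28 ± 0.12). The third gene called higher, Cd24a, lost its call without multimapped reads.

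Feedback genes of the FGF and ERK pathway fell or were not called. Of 15 tested genes 4 fell and 0 rose, with a median of −0.28, where 7.43% of all genes fell. Spry4, an inhibitor of receptor tyrosine kinase signalling, went from 40 and 39.7 CPM at 8 h to 1.14 and 2.87 CPM on day 1 (−4.27 ± 0.44, adjusted p = 2.3e-08), and its mean was back at 22.2 CPM on day 2. Spry2 went from 39.4 and 35.9 CPM to 16.5 and 11.5 CPM (−1.42 ± 0.29), and the ETS factor gene Etv4 from 207 and 247 CPM to 66.4 and 58.6 CPM (−1.86 ± 0.16). Spred1, at −1.04, was close to the limit and was called in 2 of the 15 other settings. Dusp6 (−0.28) and Fgf4 (0.20) were not called.

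Myc, the growth-promoting transcription factor (chromosome 15, 61985391 to 61990374), was read at 22.9 and 22.5 CPM at 8 h and at 1.14 and 1.15 CPM on day 1, which is 2 reads in each day 1 library. The change was −4.24 ± 0.73 (adjusted p = 5.1e-05), and the mean on day 2 was 12.7 CPM. In the Myc network list 1 of 10 genes rose, Mycl by 1.88 ± 0.43, and 2 fell, Myc and Mnt (median −0.17). Over the other settings 0 to 2 of these genes were called higher and 0 to 3 lower, with 2 higher without the first 8 h replicate and 1 lower without either day 1 replicate, and the call of Mnt was also lost in DESeq2, without TMM factors and without the second 8 h replicate. Mycn, a family member that ES cells also express, had a value of −0.91 and was not called. Of 11 immediate early genes 2 rose, Ier5 (2.49 ± 0.39) and Atf3 (2.14 ± 0.40), and 1 fell, Myc, or 2 without the second 8 h replicate. The median of that list was 0.10, or −0.15 with bounds. In the Wnt list 1 of 12 rose (Nkd1) and 1 fell (Wnt6), with a median of −0.45, and in the Notch list 1 of 9 fell (Notch1) with a median of 0.28. These counts are near the 9.29% higher and 7.43% lower of all genes tested. The calls of Nkd1 and Notch1 were lost without the second 8 h or the second day 1 replicate, and that of Wnt6 was lost in 10 alternatives and kept in 2, with losses in DESeq2, without TMM factors and without any 1 of the 4 libraries.

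Lineage markers were mixed in level and direction. Each list of them held few called genes, and its counts are read against the 9.29% higher and 7.43% lower of all genes tested, with nothing drawn from shares near these. Of 21 tested genes of primitive and visceral endoderm 3 rose and 2 fell (median 0.00, or −0.24 with bounds). Gata4, Sox7, Sox17 and Foxa2 had between 0 and 8 reads in each of the 4 libraries, and Ttr and Afp had 0 in all 4. Gata6 was read at 16.5 and 13.9 CPM at 8 h and at 18.2 and 15.5 CPM on day 1. In contrast, Serpinh1, a collagen chaperone gene, rose from 41.1 and 38.3 CPM to 194 and 185 CPM (2.25 ± 0.15), Dab2 rose from 7.05 and 4.78 CPM to 12.5 and 14.4 CPM (1.20 ± 0.32, not called without the second 8 h replicate), and Fst, an activin antagonist, rose from 2 reads to 21. The fall of Col4a1 (−1.04) was lost in 13 of the 15 other settings, and that of Amn (−1.84) in DESeq2 and without the first 8 h or either day 1 library. On day 2 against 0 h, 19 of the 21 endoderm genes were higher, where 16.2% of all genes tested were. Members such as Foxa2 and Gata4 passed the read filter only through groups outside the 4 libraries, so this count is a description. The summed level of the list was 515 and 560 CPM at 8 h and 604 and 573 CPM on day 1.

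Of 13 neural genes 3 rose and 1 fell (median 0.34). Irx3, a patterning gene of the neural tube, had 1 read at 8 h and 45 on day 1, a ratio of 48.8 with a counting interval of 8.32 to 1968. The rise of Map2 lost its call without the second 8 h or the first day 1 replicate. Pou3f3, with 0 reads at 8 h and 5 on day 1, was called higher but not when any single library of the step was left out. Elavl3, a neuronal RNA-binding protein gene, fell from 142 and 166 CPM to 40.9 and 26.4 CPM (−2.19 ± 0.19). Sox1 (−0.63) and Tubb3 (0.34) were not called, and Pax6 and Neurog1 had 0 to 2 reads in each library. The summed level of the neural list was 613 and 607 CPM at 8 h and 499 and 445 CPM on day 1.

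Of 11 primitive streak and mesoderm genes 3 rose (Foxf1, Foxc2 and Twist1) and 1 fell (Meox1), all at very low counts. The median was 2.12, or 0.90 with bounds, and between 0 and 3 of these genes were called higher over the other settings, with 1 without the first 8 h or the second day 1 replicate and 0 without the second 8 h replicate. The call of Meox1 was lost without the first 8 h or either day 1 replicate. Of 15 trophectoderm and simple epithelium genes 3 rose and 1 fell (median 1.06). Over the other settings 1 to 5 were called higher, 5 of them without the second day 1 replicate, and the gene called lower, Dlx3, lost its call in DESeq2 and without any 1 of the 4 libraries. Gata3, a trophectoderm factor, had 2 reads at 8 h and 19 on day 1, a ratio of 10.3 (2.48 to 91.1), and Gata2 had 3 reads and then 25. Krt8, a keratin of simple epithelium, was at 18.8 and 14.3 CPM and then at 10.8 and 12.1 CPM, with 89% of reads multimapped, and was not called. Of 8 fibroblast genes only Thy1 was called, lower, and its call was lost in DESeq2, without TMM factors and without any 1 of the 4 libraries. Col3a1, Dcn, Lum and Postn had 0 reads in all 4 libraries, and the summed fibroblast list was at 23.5 and 29.6 CPM at 8 h and at 14.2 and 17.8 CPM on day 1. In bulk RNA, fewer cells of a type and less RNA per cell cannot be told apart.

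Genes of the germline rose in part. Stra8, named for its stimulation by RA and required for meiotic entry (chromosome 6, 34920163 to 34939344), went from 247 and 252 CPM at 8 h to 1429.5 and 1327 CPM on day 1 (2.46 ± 0.11, adjusted p = 1.9e-15), from a mean of 19.7 CPM at 0 h. Ddx4, a germ cell helicase gene, rose from 11.2 and 10.5 CPM to 36.9 and 23 CPM (1.46 ± 0.30). Tcstv1 had 0 reads at 8 h and 11 on day 1, at least 3.97-fold higher, all from multimapped reads. Against 9.29% higher and 7.43% lower of all genes, 5 of 12 2-cell-like and germ cell genes rose and 1, Rhox5, fell (median 2.33, or 1.40 with bounds), and 3 rose where only the 2 groups were fitted. The call of Rhox5 was lost without the first 8 h replicate and that of Tcstv1 without either 8 h replicate or the first day 1 replicate.

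Among imprinted genes 3 of 12 rose and 1 fell (median 0.33), the fall near the background of 9.29% higher and 7.43% lower. Besides Cdkn1c, the Notch-like ligand gene Dlk1 rose from 1.18 and 1.43 CPM to 10.2 and 11.5 CPM (2.98 ± 0.46), ahead of a mean of 280 CPM on day 2, and the growth factor receptor adaptor gene Grb10 rose from 2.94 and 1.91 CPM to 14.8 and 10.9 CPM (2.40 ± 0.49). Peg10, a retrotransposon-derived placental gene, fell from 116 and 106 CPM to 29.5 and 40.2 CPM (−1.67 ± 0.14) although its mean was 463 CPM on day 2.

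Groups of metabolic and stress genes differed in direction, and the background was 9.29% higher and 7.43% lower. Of 16 genes of the integrated stress response, the programme that ATF4 drives when amino acids are short or proteins misfold, 10 rose and 0 fell (median 1.20). Atf5 rose from 45.8 and 57.9 CPM to 296 and 233 CPM (2.34 ± 0.16), Cth, an enzyme of cysteine synthesis, from 96.9 and 72.7 CPM to 374 and 424 CPM (2.24 ± 0.16), and Chac1, which degrades glutathione, from 81.7 and 84.2 CPM to 297 and 315 CPM (1.88 ± 0.13). Slc7a11, the cystine importer gene, had 1 read at 8 h and 24 on day 1, a ratio of 26.0 (4.24 to 1069). Atf4 itself (0.66) and Asns (0.54) were not called. Of 14 p53 targets 2 rose, Gdf15 (2.06 ± 0.25) and Perp (1.03 ± 0.25, not called without the second 8 h or the second day 1 replicate), and 0 fell (median 0.32), while Cdkn1a (0.23) and Mdm2 (0.27) were not called.

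Of 21 genes of glycolysis and the hypoxia response 3 rose and 5 fell (median −0.62), against 9.29% and 7.43% of all genes. Slc2a1, the GLUT1 glucose transporter gene, went from 428 and 458 CPM at 8 h to 102 and 125 CPM on day 1 (−1.97 ± 0.12, adjusted p = 2.9e-12), and its mean on day 2 was 496 CPM. Ldha fell from 1522 and 1567 CPM to 595 and 601 CPM (−1.37 ± 0.09) and Pdk1, which restrains entry of pyruvate into the mitochondrion, from 170 and 160 CPM to 58.5 and 75.3 CPM (−1.30 ± 0.17). Pkm had a value of −1.16, with 85% of its reads multimapped, and was no longer called without them. The members that rose were the stress-responsive Ddit4 (1.79 ± 0.14), Ndrg1 (2.31 ± 0.43) and the angiogenic factor gene Vegfa (1.07). Slc16a3, a lactate exporter gene outside the list, was among the largest falls, from 138 and 167 CPM to 28.4 and 24.1 CPM (−2.54 ± 0.21).

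Genes of sterol synthesis fell or were not called. Of 21 cholesterol synthesis genes 6 fell and 0 rose (median −0.53, with 7.43% of all genes lower), or 3 fell without the second day 1 replicate. Hmgcs1, an early enzyme of the pathway, went from 257 and 237 CPM to 97.6 and 97.7 CPM (−1.34 ± 0.12). Srebf2, the master regulator of the pathway, fell from 85.8 and 86.6 CPM to 48.3 and 28.2 CPM (−1.17 ± 0.20, not called without the second day 1 replicate), whereas Sqle (0.05) was not called. Fasn, the fatty acid synthase gene, fell from 218 and 223 CPM to 44.3 and 33.9 CPM (−2.49 ± 0.16, adjusted p = 8e-12).

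The other genes with the largest falls were of mixed function. Itpk1, an inositol phosphate kinase gene, fell from 208 and 209 CPM to 32.9 and 36.8 CPM (−2.58 ± 0.15). Stmn3, a microtubule-destabilizing protein gene, fell from 64.6 and 56.9 CPM to 6.25 and 6.9 CPM (−3.19 ± 0.31). Pdzd4 (−3.28), the synaptic scaffold gene Dlgap3 (−2.49) and the phospholipase gene Plcg2 (−2.43) were also among them.

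Cell cycle genes were counted in 2 lists. Of 25 genes of replication and G1/S 3 rose, namely Cdkn1c, Cdkn2a (1.24 ± 0.25) and Cdkn1b (from 249 and 254 CPM to 451 and 600 CPM, 1.06 ± 0.11, not called without the second day 1 replicate), and 2 fell (median −0.44), counts near the 9.29% higher and 7.43% lower of all genes tested. E2f2 fell from 137 and 143 CPM to 41.4 and 43.7 CPM (−1.72 ± 0.19), and Ccnd3, the cyclin D3 gene, from 1548 and 1432 CPM to 508 and 515 CPM (−1.54 ± 0.11), with 69% of its reads multimapped. Of 19 genes of mitosis and G2/M 5 fell and 0 rose (median −0.64). Plk1 fell from 440 and 384 CPM to 131 and 148 CPM (−1.56 ± 0.13) and Aurka from 212 and 209 CPM to 99.4 and 92.6 CPM (−1.13 ± 0.13), and Ccnb1 (−0.06) and Top2a (−0.11) were not called. None of 42 genes for cytosolic ribosomal proteins was called (median 0.07). Of 20 adhesion and epithelial transition genes 2 rose, the cadherin gene Cdh11 (1.03 ± 0.25) and Ocln, and 1 fell, with a median of 0.60. Both rises lost their call without the first 8 h or the first day 1 replicate. The higher count was 1, 5 and 4 without the first 8 h, the second 8 h and the second day 1 replicate, and 2 fell without the first day 1 replicate.

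Chromatin regulators were counted in 3 lists, against 9.29% higher and 7.43% lower of all genes tested. Of 9 DNA methylation genes 4 fell and 0 rose (median −0.86), the same count in all other settings. Tet1, which oxidizes methylcytosine, fell from 129 and 121 CPM to 26.7 and 25.9 CPM (−2.24 ± 0.17, adjusted p = 1.6e-10), the de novo methylation cofactor gene Dnmt3l from 77 and 87 CPM to 26.7 and 15.5 CPM (−1.96 ± 0.21) and the de novo methyltransferase gene Dnmt3b from 122 and 108 CPM to 47.7 and 43.7 CPM (−1.33 ± 0.15). Of 23 Polycomb genes 2 rose and 3 fell (median −0.14), counts near those shares. Epop, a PRC2 accessory protein gene of ES cells, fell from 223 and 247 CPM to 44.9 and 53.5 CPM (−2.26 ± 0.14) and Jarid2 from 905 and 898 CPM to 372 and 339 CPM (−1.34 ± 0.11), while Yaf2 rose from 16.5 and 12.9 CPM to 72.7 and 65 CPM (2.24 ± 0.25). The PRC2 core genes Ezh2 (−0.14), Suz12 (−0.16) and Eed (−0.35) were not called.

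Of 15 genes of H3K4 methylation 3 fell and 0 rose (median −0.59). Setd1b, a methyltransferase of COMPASS, fell from 84 and 75.6 CPM to 12.5 and 18.4 CPM (−2.36 ± 0.20, adjusted p = 7e-10), and the demethylase gene Kdm5c from 66.4 and 72.7 CPM to 25.5 and 28.2 CPM (−1.37 ± 0.20). Kmt2d, at −1.01, was near the limit and was called in 3 of the 15 other settings. The tagged gene Dpy30 was read at 93.4 and 114 CPM at 8 h and at 61.3 and 59.2 CPM on day 1. Its log2 value of −0.79 ± 0.15 had an adjusted p of 0.00021 and lay inside the 2-fold limit.

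Some genes called higher at 8 h than at 0 h were then called lower on day 1. Between 0 h and 8 h, 399 genes rose (3.5%) and 334 fell (2.93%), and between day 1 and day 2, 577 rose (5.05%) and 239 fell (2.09%). Since both comparisons use the 8 h libraries, and the genes were picked for both directions, their values are a description. Nt5e, the ecto-5′-nucleotidase CD73 gene, was at a mean of 2.06 CPM at 0 h, at 44.7 and 56.9 CPM at 8 h and at 10.8 and 8.62 CPM on day 1. Rapgef3, an activator of RAP1 that responds to cyclic AMP, was at 62.3 CPM at 0 h, 129 and 132 CPM at 8 h and 23.3 and 31.6 CPM on day 1. Zfhx2 was at 67.8 CPM, then at 184 and 181 CPM, then at 33.5 and 43.1 CPM. The remaining genes of this kind with the largest falls were Plcg2, Ksr1, Lnx2, Kbtbd11 and Zmiz1. In the auxin libraries, which take no part in that choice, Rapgef3 fell by 2.02 on the log2 scale from 8 h to day 1 (adjusted p = 1.1e-08), whereas Nt5e had a value of 0.20 (adjusted p = 0.52).

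Auxin-treated cells, from which DPY30 is depleted, went through the same step in libraries that share none with the DMSO step. There 905 genes rose (7.93%) and 528 fell (4.63%). Of the 1061 genes that rose with DMSO, 498 (46.9%) also rose with auxin, 55.0% of all genes that rose there, and 2 fell. Of the 848 that fell with DMSO, 274 (32.3%) fell with auxin, 51.9% of all that fell there, and 0 rose. The median log2 fold change with auxin was 1.20 for the first set and −0.82 for the second, against 1.76 and −1.31 with DMSO, the libraries that chose the sets. Over all 11415 genes the steps correlated with r = 0.629 (Spearman's rho 0.683), a description across genes, which are not independent replicates. Id2 rose by 4.24 ± 0.14 with auxin against 4.11 ± 0.13 with DMSO, and Stra8 by 2.31 against 2.46.

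The difference of the step between DMSO and auxin was tested as an interaction. It was called for 120 genes, or 1.05%, of which 49 had a higher step with DMSO (0.429%) and 71 a lower one (0.622%). Without TMM factors the split was 72 higher and 34 lower, and leaving out any 1 of the 8 libraries left 14 to 27 higher and 28 to 49 lower. Sall4, a zinc finger factor of ES cells, fell from 360 and 384 CPM to 127 and 123 CPM with DMSO, and its auxin means were 280 and 239 CPM, a difference of −1.34 ± 0.16 (adjusted p = 6.7e-05). Hnrnpd, an RNA-binding protein gene, fell from 556 and 571 CPM to 150 and 143 CPM with DMSO and had auxin means of 481 and 293 CPM. Slc2a1, Akap12, Nt5e and Rnf165 were the others with the lowest p in this direction. In the other direction, Cdkn1c rose by 3.48 with DMSO and by 2.44 with auxin, and Apoe, which fell in both, fell by 2.10 (−2.10) with DMSO and by 3.64 (−3.64) with auxin. Junb, Icam1, Marcksl1 and Phlda2 fell with auxin and were not called with DMSO. Hoxa9 (auxin step 0.29) and Hoxa10, which had 0 reads in the auxin day 1 libraries, also differed. Of the 26 pluripotency genes 4 had a lower step with DMSO, namely Sall4, Tdh, Lin28a and Prdm14. Of the differences named here, those of Sall4, Hnrnpd, Slc2a1, Nt5e, Rnf165, Tdh and Lin28a were called under every alternative, and each of the others was lost when at least 1 single library was left out.

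**Figure D4:**
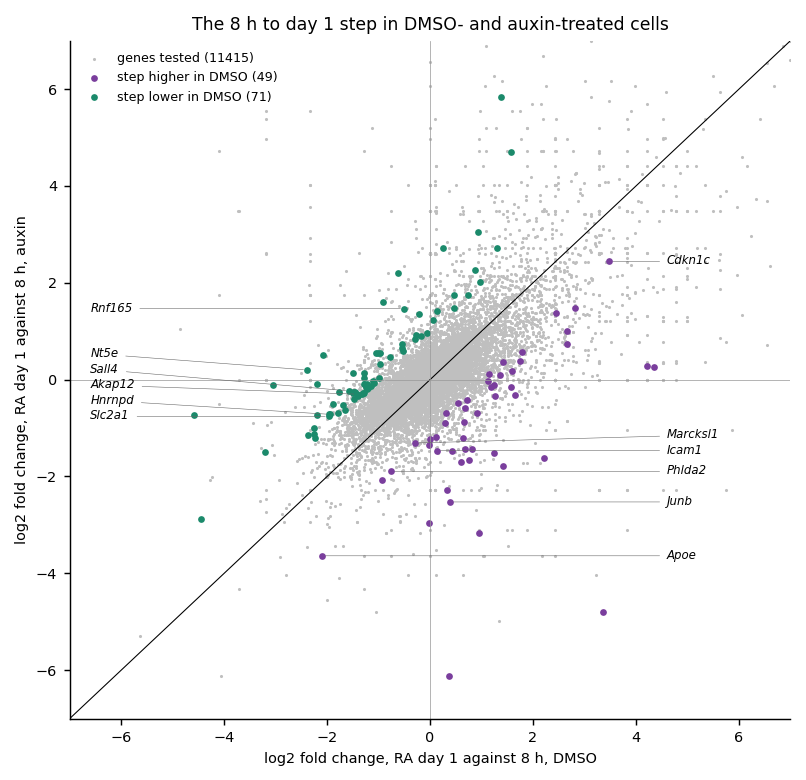
Log2 fold change of day 1 over 8 h for each gene tested, with DMSO (x) and with auxin (y), and values beyond 7 drawn at the edge. Grey points are the 11415 genes tested, purple points the 49 genes with a higher step with DMSO and green points the 71 with a lower one, and the line marks equal steps.

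The level reached on day 2 was compared with that at 0 h in DMSO libraries that the step does not use. There 1854 genes were higher (16.2%) and 1158 lower (10.1%). Of the genes that rose from 8 h to day 1, 732 (69.0%) were higher on day 2 than at 0 h and 4 were lower. Of those that fell, 475 (56.0%) were lower on day 2 and 11 were higher, among them Peg10 and Nt5e. Lin28a (−0.59), Slc2a1 (−0.08) and Myc (−0.34) fell over the step and were not called between 0 h and day 2, whereas Tdh (−6.35) and Tet1 (−3.20) were lower.

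Genes that fell were richer in GC. The GC content of the longest annotated transcript had a median of 53.9% in genes that fell, 48.8% in genes that rose and 49.5% in genes not called. In 5 equal bins of 2283 genes by GC content, the share that fell was 2.63% in the poorest bin, 6.92% in the middle bin and 14.4% in the richest, and the share that rose was 10.4%, 9.72% and 8.02%. The order of the falling shares was the same in the auxin libraries, where 1.31% fell in the poorest bin and 10.1% in the richest, and between 0 h and day 2, with 3.72% and 19.1%. Falling genes also had longer transcripts (median 4028 bases, against 3002 in rising genes) and more reads (median 36.9 CPM over the 4 libraries, against 9.39). Whether base composition affects how reads were captured or counted was not tested.

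**Figure D5:**
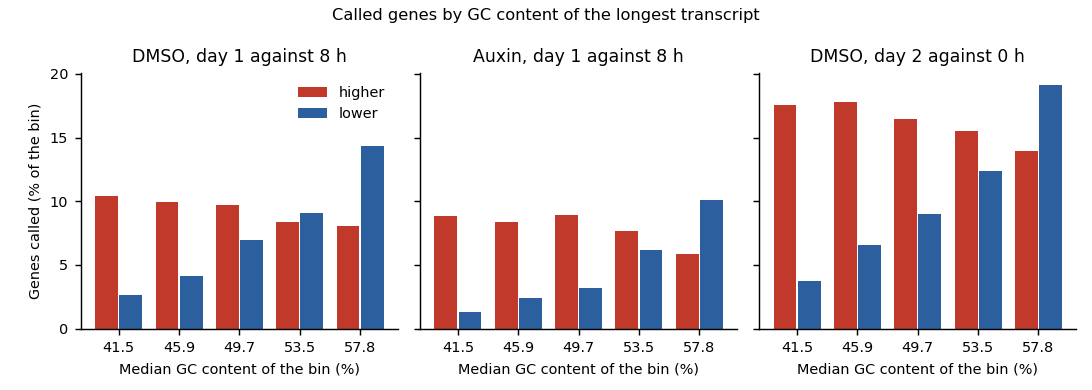
Share of genes called higher (red) and lower (blue) in each of 5 bins of 2283 genes by GC content of the longest transcript, for the DMSO step, the auxin step and day 2 against 0 h with DMSO. Axes show percent of the bin and its median GC content, and in each panel the blue bar is tallest in the GC-richest bin.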

How the data were processed

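RNA from DPY30–mAID cells was profiled by 3′ end sequencing (Quant-seq). The deposited values are read counts per 3′UTR interval of GENCODE vM14 on mm10, multimapped reads included, in tables whose headers name SlamDunk 0.3.4, whereas the submitters' processing notes name HISAT2 2.2.1 and featureCounts. The authors' counts of 46420 intervals were summed per gene (20177 genes). Multimapped reads were 32.5 to 33.9% of the 4 libraries.

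Genes whose group mean reached 10 reads in any group were fitted with edgeR 4.0.16 in R 4.3.3 (TMM, quasi-likelihood test, Benjamini-Hochberg adjustment over 11415 genes) across 21 Quant-seq libraries, with the group as the only term and 10 residual degrees of freedom. The files of the 2 DMSO day 6 libraries were identical and were counted as 1 sample. The same fit gave the auxin step, the interaction and day 2 against 0 h. SEs are the log2 fold change divided by the square root of F. Simulated counts were used as a test of the fit on 10777 genes. Every gene was given 1 fixed dispersion (spread between replicates), larger than the common value of 0.0078 in the real fit. Changed genes had a mean of at least 10 reads over all libraries, so genes with fewer reads are not covered. For the DMSO step, 79% of 100 genes simulated with a log2 change of 1.5, and 97% of 100 with one of 2, were called, and for the interaction, on 10744 genes, 39% and 75%. Replicate numbers did not pair the 8 h and day 1 libraries (correlation of deviations −0.032).

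Named genes are up to 6 called genes per list with the largest change, all tested Hox and RA pathway genes, cell type markers, the 12 largest rises and falls with at least 50 reads and no overlap, the 6 genes per direction with the lowest p for the interaction, the 8 largest falls among genes called higher at 8 h than at 0 h, and Dpy30. Any other gene named was chosen after its values were seen. A few genes that the rule selects are not reported here. The 33 lists hold 574 genes, of which 479 were tested, and the members and lists were chosen with earlier results of these data known. Alternatives were DESeq2 1.42.0, other scalings and filters, a replicate block, fewer groups, counts without multimapped reads, the largest interval only and each library left out. Promoter sequences came from RefSeq (GRCm38.p6), and gene coordinates, lengths and GC content from GENCODE vM21.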

Additional observations from a re-analysis of the deposited data

Results flagged for a closer look

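The step from 8 h to day 1 differed between DMSO- and auxin-treated cells in 25 of the named genes by edgeR's test of the difference itself. Values are the log2 step with DMSO minus that with auxin.

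The step was lower with DMSO for 4 of 26 tested pluripotency genes, Sall4 (−1.34), Tdh (−1.58), Lin28a (−1.70) and Prdm14 (−2.95), for 2 of 9 DNA methylation genes, Tet1 (−1.04) and Dnmt3l (−1.25), for 1 of 23 Polycomb genes, Epop (−1.27), and for 1 of 15 H3K4 methylation genes, Setd1b (−1.22), where 0.622% of all genes tested had a lower step. Prdm14 stood at a mean of 8.94 CPM at 8 h and 8.28 CPM on day 1 with auxin, against 12.3 and 12.4 CPM at 8 h and 1.7 and 1.15 CPM on day 1 with DMSO. The other genes with a lower step were Hnrnpd (−1.23), Slc2a1 (−1.21), Akap12 (−1.11), Elavl3 (−1.45), Rnf165 (−1.97), Nt5e (−2.59), Zmiz1 (−1.64) and Zfhx2 (−1.13).

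The step was higher with DMSO for the imprinted growth regulators Cdkn1c (1.04) and Phlda2 (1.14) and for Junb (2.91), Icam1 (1.60), Apoe (1.54), Marcksl1 (1.01) and Otub2 (1.34). It was also higher for Hoxa9 (3.92) and Hoxa10 (8.16). Hoxa10 had 0 reads in both auxin day 1 libraries, so the fitted 8.16 is no bound. Of the 25 calls 9 were kept under every alternative, those of Sall4, Hnrnpd, Rnf165, Nt5e, Slc2a1, Zmiz1, Epop, Tdh and Lin28a, and 16 were lost under at least 1.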

How the results depend on the processing

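For the DMSO step, 117 of the 160 named genes that were called kept their call under all 15 alternatives, 43 lost it under at least 1, and 0 changed direction. The filter at 50 reads, which tests fewer genes, left 671 higher and 557 lower for the DMSO step, 541 and 334 for the auxin step, and 1105 and 748 for day 2 against 0 h. With no limit on the fold change the counts were 1887 and 2160, 1716 and 1692, and 2865 and 2612. DESeq2 called 302 genes lower in the auxin step. For the interaction, DESeq2 called 14 higher, the absence of TMM factors left 34 lower, unadjusted p-values gave 305 and 255, no limit on the fold change gave 75 and 214, and leaving out 1 library gave 14 to 27 higher and 28 to 49 lower. Where the alternative's own construction does not show it, the cause was not tested. Leaving out 1 library gave 935 to 1039 higher and 618 to 663 lower for the DMSO step. The share of falling genes ranged over the settings from 1.66 to 2.63% in the GC-poorest bin of genes and from 10.1 to 16.5% in the richest.

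The 8 h and day 1 libraries share only a replicate number. With the replicate block the DMSO step had 1064 genes higher and 844 lower, and the fit of those 2 groups alone with the block, chosen after seeing the data, had 1021 and 771.

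Depth limits the result most in genes that rose, of which 769 had a mean under 50 reads on day 1.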

Other observations

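Several genes that fell over the step stood at their lowest mean on day 1 among the DMSO times measured, and the step from day 1 to day 2 was called higher for them. Jarid2 had means of 1145 CPM at 0 h, 355 CPM on day 1 and 796 CPM on day 2. Epop had 394, 49.2 and 149 CPM and Fasn had 294, 39.1 and 84.9 CPM at these times. These genes were picked for the pattern after their values were seen, and the values are a description.

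A comparison with the share of T-to-C reads at 0 h, from metabolic labelling in other libraries, is void, since 34.9% of the genes that rose had a value.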
